A study of Mus musculus with 232 samples.

Results

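Mature oligodendrocytes are the cells that wrap axons of the central nervous system in myelin. In mouse dentate gyrus, the hippocampal region that keeps producing granule neurons after birth, they are taken here as the cells that the authors' annotation assigns to the cluster named MOL. The cluster held 704 of 24185 cells, and 6 of the 8 ages sampled contributed to it. There was 1 MOL cell at P5, and there were 112 at P18, 63 at P19, 192 at P23, 188 at P120 and 148 at P132. No MOL cell was found at E16.5 or P0. Single cells were profiled with a droplet kit that counts unique molecular identifiers (UMIs), each standing for a captured RNA molecule.

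Animals of an age were pooled, so an age is the unit of replication and n counts ages. Perinatal animals (E16.5, P0, P5) were CD-1 mice of unknown sex. The juvenile pools were CD-1 males at P18, C57Bl/6 females at P19 and again CD-1 males at P23. Adults were hGFAP-GFP mice, 2 males and 1 female at P120 and 3 males and 1 female at P132. In hGFAP-GFP mice a human GFAP promoter drives green fluorescent protein, a label of astrocytes and neural stem cells, and by the labelled protocol the adult cells were sorted for it. Stage, mouse line, sex of the pool and the sort therefore cannot be told apart in any comparison of juvenile with adult MOL. Adult MOL cells passed that sort although the endogenous Gfap transcript was low in them, at 21.8 CPM (UMIs of a gene per 1000000 UMIs of the summed cells) at P120 and 11.2 at P132, against 2.99 to 14.6 at the juvenile ages.

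Oligodendrocytes arise from precursors (cluster OPC) through a newly formed stage (cluster NFOL) and then build myelin, a multilayered membrane rich in cholesterol and galactolipids and held together by a few abundant proteins. Sterols hardly cross the blood-brain barrier, so myelinating cells make much of their own cholesterol. After the main period of myelin formation, oligodendrocytes maintain the sheath and supply axons with metabolites.

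The MOL cells of each age were added up, giving sums of 334780 UMIs (P19) to 1506752 UMIs (P23). Median UMIs per MOL cell were 3992 at P18, 4773 at P19 and 7564 at P23, against 2141.5 at P120 and 2138 at P132, so juvenile cells were the deeper ones. Of the MOL cells, 22 carried a barcode that also occurred in another library, and 0 of these were MOL in both. The female-linked transcript Xist was at 0 CPM in the MOL cells of the male ages P18 and P23 and at 974 CPM in those of the female age P19. Adult sums stood apart in other ways. Ribosomal protein transcripts made up 6.20% and 9.18% of MOL UMIs at P120 and P132 against 3.73% to 4.69% in juveniles, without overlap, and their part in the results was not tested. Mitochondrial transcripts made up 4.01% of MOL UMIs at P120 against 7.62% to 11.1% at the other ages from P18 on. The summed level of 15 neuron markers was 2611 CPM at P132 against 448 to 553 CPM at the other 4 ages, and the 12 precursor markers summed to 315 CPM at P120 and 863 CPM at P132 against 62.5 to 121 CPM in juveniles. In 67 of the 148 MOL cells at P132, and in 0 to 8 cells at each other age from P18 on, neuron and precursor markers together made up 0.2% or more of the cell's UMIs. Leaving those cells out is used below as an alternative for the gene calls and the list sums. The levels of single genes and the per-cell shares include them.

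The cluster's name held against its markers. Mog, a surface glycoprotein of the outer myelin layer, was at 2938, 3387 and 3119 CPM in juvenile MOL (in order of age, as in all such series of values) and at 1927 and 916 CPM in adult MOL. Mobp, a myelin basic protein of the oligodendrocyte, was between 1779 CPM (P132) and 5541 CPM (P23), Mal, a raft-associated membrane protein, between 1138 and 4033 CPM, and Opalin, an oligodendrocyte sialoglycoprotein, between 587 and 1871 CPM, with P132 the lowest and P23 the highest in each case. The 4 markers together were at 4421 CPM at P132 and at 6948 CPM there without the cells of high neuron or precursor share. In OPC the 4 markers together were at 32 to 62 CPM at the same ages, in astrocytes at 22 to 58 CPM and in NFOL at 143 to 309 CPM. Of 10 microglial, 8 endothelial and pericyte, 5 meningeal and 4 haemoglobin genes, the sums in MOL were at most 256, 50.6, 1.99 and 10.6 CPM at ages from P18 on. Dcn, Lum and Igf2, which mark vascular and leptomeningeal cells, were at 0 in every one of these sums.

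MOL cells went from absent to common between the first postnatal week and the third. None were found among 2285 cells at E16.5 or 4779 cells at P0, where the exact 95% intervals reach up to 0.161% and 0.0772%. P5 gave 1 of 4435 cells (0.0225%, exact 95% interval 5.71e-04% to 0.126%). At P18, P19 and P23 the cluster took 4.13% (3.41% to 4.95%), 3.03% (2.33% to 3.86%) and 7.11% (6.17% to 8.14%) of all cells. These intervals cover counting error only. The juvenile mean was 4.76% ± 2.11 (SD, n = 3 ages) and the perinatal mean 0.00752% ± 0.0130, and the ages of the 2 stages did not overlap. The exact permutation test gave p = 0.1 (two-sided), the smallest value that 3 ages against 3 can reach, so the design cannot pass a threshold of 0.05.

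Among cells of the oligodendrocyte line alone, counted as OPC, NFOL and MOL together, MOL made up 0 of 61 cells at P0 and 1 of 205 at P5, where 171 were OPC and 33 NFOL. The MOL share of the line was 67.1% at P18, 48.5% at P19 and 57.7% at P23, a juvenile mean of 57.7% ± 9.30 against 0.244% ± 0.345 at P0 and P5 (exact permutation p = 0.2, the smallest possible with 2 ages against 3). E16.5 had 2 cells of the line and was left out. In the sorted adults MOL were 31.9% of the line at P120 (exact 95% interval 28.1% to 35.8%), where 383 of 590 cells of the line were OPC, and 61.2% (54.7% to 67.3%) at P132. Their shares of all cells, 13.8% at P120 and 3.87% at P132, differed by far more than counting error between sorted pools of the same mouse line, and no test against other stages was made.

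**Figure D1:**
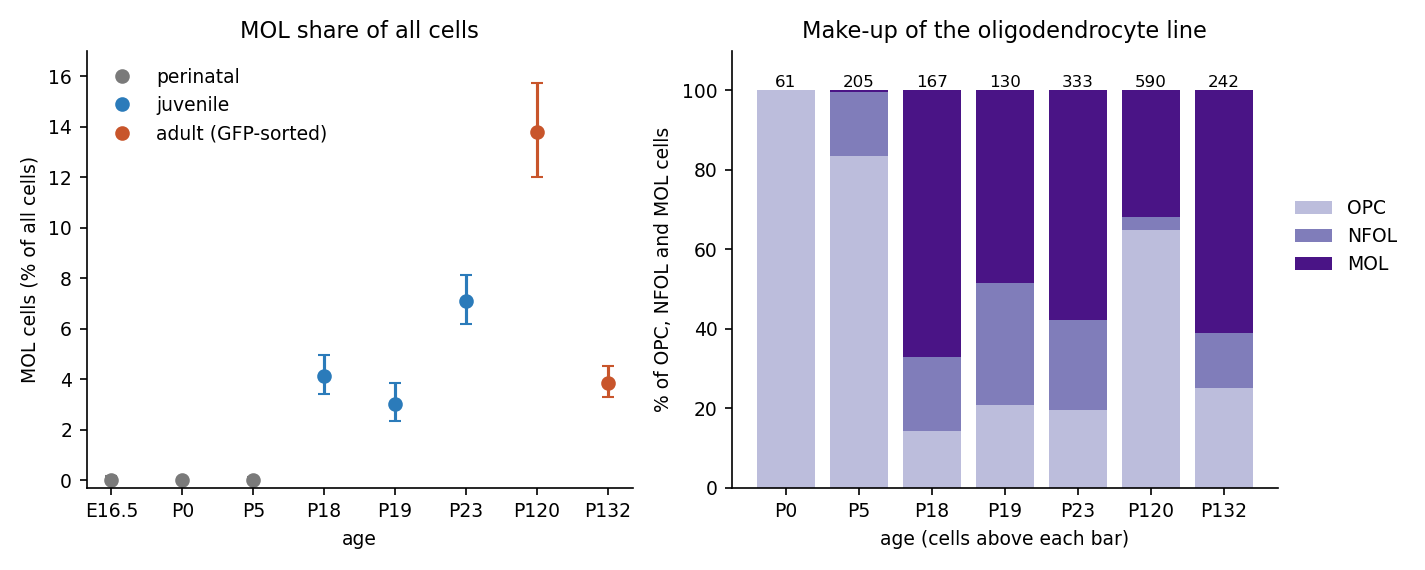
The left panel plots MOL cells as a percent of all cells at each of 8 ages with exact 95% binomial intervals, and the right panel the percent of OPC, NFOL and MOL among the oligodendrocyte line at the 7 ages with 10 or more such cells, with the number of cells above each bar. MOL rise from 1 cell at P5 to 3.03% to 7.11% of cells at juvenile ages, and the adult ages P120 and P132 differ widely in the share of OPC.

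The genes that set MOL apart are listed here as a description, without a test, since clustering used these very cells. Among genes at 100 CPM or more over all MOL cells, the 20 with the highest ratio of MOL to the next cluster other than NFOL included Mog (2670 CPM, 249 times the next cluster), Mobp (165 times), Opalin (163 times) and the transmembrane gene Tmem125 (136 times). Nkx6-2, a homeodomain transcription factor, followed at 111 times, and Mag, an adhesion protein facing the axon, at 96.3 times. Others were the gap junction gene Gjb1, the cytoskeletal protein gene Ermn, the basic protein gene Mbp, Tmem88b, Mal, the aggrecan-cleaving protease gene Adamts4, Cnp, which makes the enzyme CNPase of non-compact myelin, the tetraspanin gene Tspan2, Hapln2, a link protein of nodes, Plekhh1, the glycosyltransferase gene Galnt6 and the adaptor gene Grb14, the last at 22.5 times. Several of these were shared with newly formed cells and others were not. MOL stood 1.44 times over NFOL in Mbp and 2.03 times in Cnp, but 539.9 times in Mal, 204 times in Hapln2, 102 times in Gjb1 and 100.3 times in Opalin. Ermn had 1217 CPM in MOL and 0 UMIs in NFOL.

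Gene expression in juvenile and adult MOL was compared on the summed UMIs with edgeR's quasi-likelihood test, calling a gene at a Benjamini-Hochberg adjusted p under 0.05. Of 5877 genes tested, 193 (3.28%) were called, 114 higher in adults (1.94%) and 79 lower (1.34%), and 1379 had an unadjusted p under 0.05. Genes of cholesterol synthesis were prominent among those that fell, 12 of the 79, while Il33 was among those that rose. The median log2 fold change over all genes tested was 0.02 with TMM scaling. With no scaling between the sums it was 0.23, and the split became 186 higher and 46 lower. The number of calls depended on the ages used. It was 39 without P18, 122 without P19, 130 without P23, 600 without P120 and 173 without P132, and 104 without the second of the 2 libraries of P132. Without the cells of high neuron or precursor share 288 genes were called. Of the 51 called genes singled out by rule, list or after their values were seen, 49 could be tested in that setting and 47 were called.

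**Figure D2:**
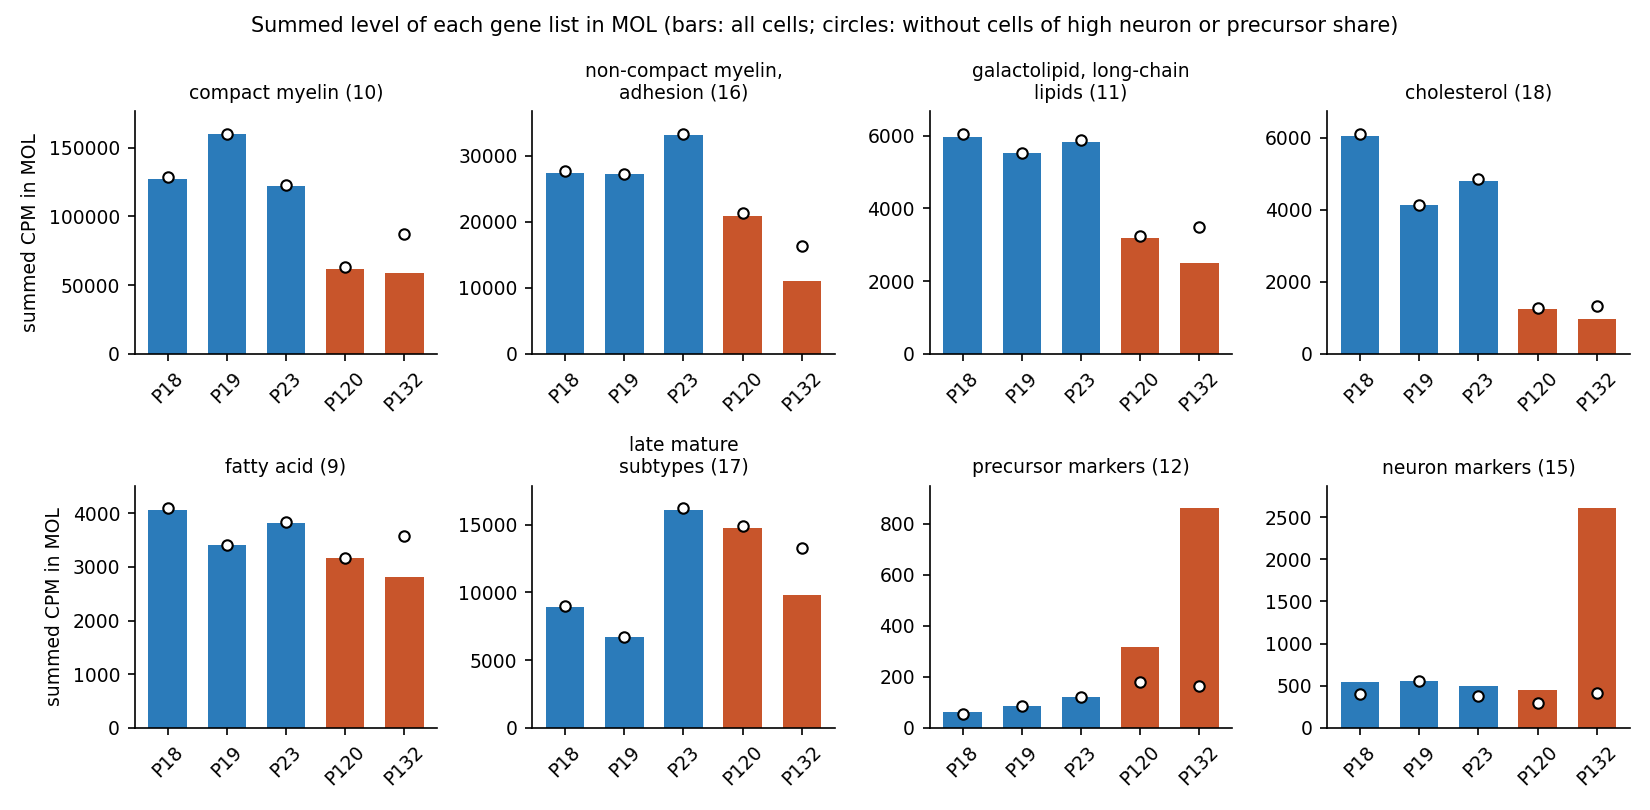
Each panel gives the summed level, in CPM, of a gene list in MOL at 3 juvenile (blue) and 2 adult (orange) ages, with the number of genes in the list in parentheses; open circles are the same sums without cells in which neuron and precursor markers make up 0.2% or more of UMIs. The cholesterol sum is 4140 to 6049 CPM in juveniles and 956 and 1257 CPM in adults, and the circles of the precursor and neuron panels at P132 drop to 163 and 409 CPM.

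Of 18 genes of cholesterol synthesis and uptake, all of them tested, 12 fell in adults, 0 rose, and 18 had a negative fold change (17 with no scaling between the sums). Their median log2 fold change was -2.01. The background for a fall is the 1.34% given for all genes, and 49.1% of all genes tested had a negative fold change. The first steps of the pathway build isoprenoid units from acetyl-CoA. Hmgcs1, HMG-CoA synthase, was at 2217, 1380.0 and 1448 CPM in juveniles and at 228 and 219 CPM in adults, a log2 fold change of -3.10 ± 0.40 (SE, adjusted p = 0.00327). The adult ages lay far below the lowest juvenile age and close to each other. Mvd, a decarboxylase of mevalonate diphosphate, was at 96.9, 53.8 and 87.6 CPM and then at 21.8 and 19.7 CPM (-2.12 ± 0.42, adjusted p = 0.0258, lost without P18 or P23).

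Idi1, the isomerase of isopentenyl diphosphate, was at 560.1, 335 and 387 CPM in juveniles and 45.3 and 59.0 CPM in adults (-3.24 ± 0.40, adjusted p = 0.00293), the largest negative fold change of the pathway. Fdps, which joins isoprenoid units to farnesyl diphosphate, was at 592, 281 and 522 CPM and then at 85.2 and 36.5 CPM (-3.08 ± 0.47). Again no adult age reached a juvenile one.

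In the part of the pathway that is specific to sterols, Sqle, the squalene epoxidase, went from 327, 111 and 257 CPM to 30.8 and 25.3 CPM (-3.22 ± 0.50), and Cyp51, the lanosterol demethylase, from 405, 272 and 349.8 CPM to 52.6 and 36.5 CPM (-3.10 ± 0.37). Nsdhl and Msmo1, both of sterol C-4 demethylation, fell by 2.92 and 1.77 on the log2 scale, and Hsd17b7, of the same complex, by 1.81. The Hsd17b7 call was lost without P18, P19, P132 or either library of P132 and with no scaling. The 6 members that did not pass were Lss (-1.81), Sc5d (-1.56), Dhcr7 (-0.93), Fdft1 (-0.88), the sterol sensor partner Insig1 (-0.77) and Srebf2 (-0.19), which encodes the transcription factor SREBP2 that drives the pathway. Srebf2 was at 60.4 to 81.9 CPM in juveniles and at 90.7 and 45 CPM in adults, so its ages overlapped.

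The summed level of the 18 genes was 6049, 4140.0 and 4788 CPM in juveniles and 1257 and 956 CPM in adults, a juvenile mean 4.51 times the adult mean. Without the cells of high neuron or precursor share the adult sums were 1267 and 1317 CPM and 13 of the 18 genes were called lower. Of the 18, 10 to 14 were called when P19, P23, P120 or P132 was left out, and 7 without P18, where Mvd, Msmo1 and Hsd17b7 were among those that no longer passed. The count was 11 without either library of P132. A further 3 enzymes around the pathway, named after their values were seen, also fell. They form no fixed list and add nothing to the result for the 18 genes. Aacs, acetoacetyl-CoA synthetase, dropped by 3.44 on the log2 scale, Acat2, acetyl-CoA acetyltransferase, by 2.10 (lost without P18), and Ebp, a sterol isomerase, by 1.79. The Ebp call was lost without P18, P19, P23, P132 or either library of P132, with no scaling and with cells thinned to equal UMIs.

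**Figure D3:**
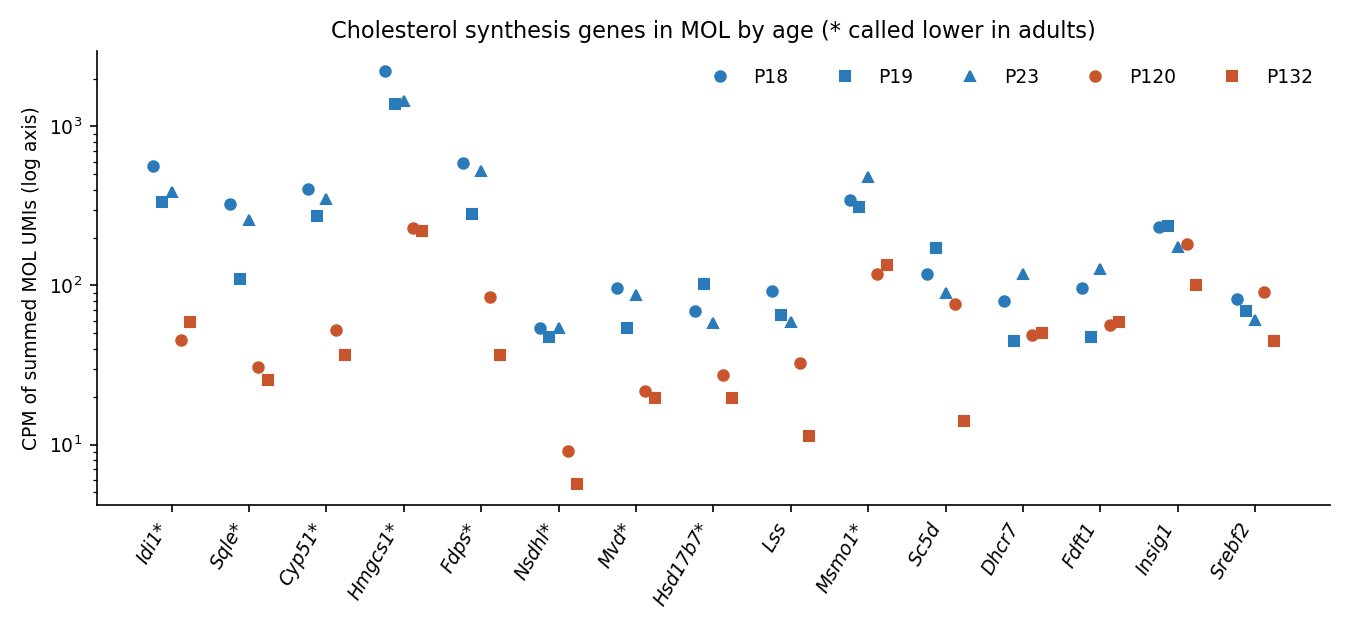
Levels of the cholesterol genes named in the text in MOL, in CPM on a log axis, at 3 juvenile (blue) and 2 adult (orange) ages, ordered by fold change; an asterisk marks a gene called lower in adults. All adult points lie below all juvenile points for the genes so marked, for example 45.3 and 59.0 CPM against 335 to 560.1 CPM in Idi1.

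Promoter sequence is shown for a few of the genes that fell. RefSeq promoter windows on the GRCm38.p6 assembly, the mm10 build, span 250 bases before to 50 after the annotated start, and 12 of the 18 genes had a window. The CCAAT box, the letters CCAAT on either strand and the binding motif of NF-Y, occurred in windows of each of these 12 genes, called or not (Lss, Sc5d, Dhcr7, Insig1 and Srebf2 are among them), and in 37.4% of all 32851 windows (41.1% of genes). The sterol regulatory element as searched, TCACNCCAC on either strand, occurred in 1 of the 12, Hmgcs1, and in 1.24% of all windows. Both motifs were allowed to overlap. The 3 called members with the largest negative fold change that have a window are printed 5′ to 3′ on the gene's strand, with every CCAAT match (ATTGG on the other strand) and the sterol element in capitals. Idi1 lies on chr13:8885356-8885655, plus strand, Cyp51 on chr5:4104648-4104947, minus strand, and Hmgcs1 on chr13:119690101-119690400, plus strand.
Idi1: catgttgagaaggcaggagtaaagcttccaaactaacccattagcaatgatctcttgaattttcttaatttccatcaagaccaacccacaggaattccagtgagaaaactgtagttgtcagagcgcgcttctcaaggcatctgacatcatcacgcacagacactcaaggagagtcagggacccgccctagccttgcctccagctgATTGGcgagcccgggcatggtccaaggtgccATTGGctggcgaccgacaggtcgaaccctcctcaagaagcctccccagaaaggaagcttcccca
Cyp51: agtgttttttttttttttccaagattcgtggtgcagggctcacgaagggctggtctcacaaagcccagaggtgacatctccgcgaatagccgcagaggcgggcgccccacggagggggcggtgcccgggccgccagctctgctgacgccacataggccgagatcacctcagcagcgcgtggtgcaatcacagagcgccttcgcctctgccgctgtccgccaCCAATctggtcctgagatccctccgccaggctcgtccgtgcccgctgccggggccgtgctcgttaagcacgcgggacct
Hmgcs1: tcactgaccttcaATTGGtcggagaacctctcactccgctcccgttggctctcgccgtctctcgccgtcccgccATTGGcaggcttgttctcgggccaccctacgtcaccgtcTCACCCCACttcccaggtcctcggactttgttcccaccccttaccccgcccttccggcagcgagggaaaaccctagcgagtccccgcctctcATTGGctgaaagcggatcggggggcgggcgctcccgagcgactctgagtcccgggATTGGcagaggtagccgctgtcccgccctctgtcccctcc
Hmgcs1 held 4 CCAAT matches, Idi1 held 2 and Cyp51 held 1. Windows of 10 galactolipid and long-chain lipid genes held the CCAAT letters in 7 genes, and those of 8 compact myelin genes in 2. A match is a description of these letters and says nothing on binding.

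Of 11 galactolipid and very long chain lipid genes, 10 were tested, 2 fell and 0 rose, against 1.34% called lower over all genes tested. Ugt8a, which makes galactocerebroside, the typical lipid of myelin, was at 3149, 2859 and 2411 CPM in juveniles and at 763 and 854 CPM in adults (log2 fold change -1.99 ± 0.36, adjusted p = 0.0187, lost without P18). Degs1, a ceramide desaturase, went from 437, 424 and 372 CPM to 150.5 and 163 CPM (-1.58 ± 0.31, adjusted p = 0.0248). Its call was likewise lost without P18, and also with cells thinned to equal UMIs. Fa2h, which hydroxylates myelin fatty acids, was at 469 to 690.2 CPM in juveniles and 566 and 326 CPM in adults and did not pass (adjusted p = 0.328), and neither did Gal3st1, the sulfatide synthase (adjusted p = 0.823), or Aspa, aspartoacylase (0.690). All 10 tested had a negative fold change, against 49.1% of all genes tested, with a median of -0.85. The group's sum was 5532 to 5956 CPM in juveniles and 3180.2 and 2485 CPM in adults, and 3484 CPM at P132 without the cells of high neuron or precursor share. Of 9 fatty acid synthesis genes, 7 were tested and 0 passed. Fasn, fatty acid synthase, was at 94.8, 114 and 108 CPM and then at 63.5 and 30.9 CPM (adjusted p = 0.0731), and Scd2, the main desaturase, at 2748 to 3328 CPM and then at 2493 and 2296 CPM (0.363).

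Among 10 proteins of compact myelin and its membrane 2 fell, both of them tetraspanins, against 1.34% called lower over all genes tested. Cd81 went from 8175, 5338 and 6141 CPM to 1994 and 1507 CPM (log2 fold change -2.10 ± 0.41, adjusted p = 0.0239, lost without P18 or P19). Cd9 went from 607, 582 and 711 CPM to 247 and 219 CPM (-1.62 ± 0.31, adjusted p = 0.0214, lost without P18). None of the others passed. Mbp was at 9689.9 to 10968 CPM in juveniles and 9626 and 5298 CPM in adults (adjusted p = 0.344), and Mobp and Mal overlapped between stages. The sum of the list was 127092, 160263 and 122204 CPM in juveniles and 61708 and 58596 CPM in adults, and at P132 it was 87126 CPM without the cells of high neuron or precursor share.

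None of 16 genes of non-compact myelin, adhesion and junctions was called, and 12 of them had a negative fold change, against 49.1% of all genes tested. Their sum was 20929 CPM at P120 and 11057 CPM at P132, against 27179 to 33119.6 CPM in juveniles. Without the cells of high neuron or precursor share the adult sums were 21355 and 16341 CPM. Without the 14 cells of very many UMIs the P120 sum was 15402 CPM. Mag (-1.45, adjusted p = 0.0601), the tight junction gene Cldn11 (-1.45, 0.0804) and Cnp (-1.27, 0.0953) were lower at both adult ages than at any juvenile age. Hapln2 was at 75.4, 65.7 and 227 CPM in juveniles and 502 and 269.8 CPM in adults (1.43, 0.0974), and Cntn2, an adhesion molecule of the juxtaparanode, at 131, 167 and 259 CPM and then at 667 and 315 CPM (1.22, 0.0883). These 2 thus lay in the other direction without overlap and did not pass either. Over all 5877 genes tested, 2447 had no overlap between the ages of the stages. The 14 transcription factors of the line, 0 of which were called, had a median log2 fold change of 0.09. Myrf, the master regulator of myelin genes, was at 161 to 168 CPM in juveniles and 379 and 155 CPM in adults, Sox10 at 228 to 433 CPM and then at 493 and 298 CPM, and Olig2 at 173 to 212 CPM and then at 190.4 and 109.6 CPM.

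The largest negative fold change among the genes named by rule was that of Rras2, a Ras-family GTPase known from newly formed oligodendrocytes. It was at 334, 257 and 93.6 CPM in juveniles and at 21.8 and 14.1 CPM in adults (log2 fold change -3.80 ± 0.62, adjusted p = 0.0124), and it was highest at P18 and lowest at P23 among the juveniles. Enpp6, a phosphodiesterase that marks cells about to myelinate, fell as well, from 68.9, 114 and 102 CPM to 19.9 and 25.3 CPM (-2.25 ± 0.40, adjusted p = 0.0175, lost with cells thinned to equal UMIs and without cells with UMIs of other types). Of the 17 newly formed markers, 16 were in the table, 13 were tested and these were the 2 called, both lower. Over all genes tested 1.34% were called lower. Gsn, the actin-severing protein gelsolin, went from 1275, 804 and 1609 CPM to 294 and 163 CPM (-2.60 ± 0.42, adjusted p = 0.0111) and was the only one of 16 cytoskeletal genes called. Ctsl, the lysosomal protease cathepsin L, fell by 2.78 on the log2 scale, and Cldn14, a claudin, by 2.30. The Cldn14 call was lost without P18, P19, P23, P132 or the second library of P132.

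Il33, which encodes an alarmin cytokine of the interleukin-1 family, had the largest positive fold change of the genes named by rule. It was at 0, 8.96 and 2.65 CPM in juveniles, resting on 0, 3 and 4 UMIs, and at 181 and 222 CPM in adults, on 100 and 79 UMIs (log2 fold change 5.78 ± 0.55, adjusted p = 8.82e-04). Il33 lies on chromosome 19 at 29925113 to 29960718 (GRCm38.p6). Its 2 adult ages were close and both stood far above the juveniles, and the fold change was 5.93 without the cells of high neuron or precursor share. It was called in all 18 alternatives run. Of these, 2 (minimums of 20 and of 5 cells per age) repeat the main fit, since every age had 63 or more MOL cells. In the 2 libraries of P132 it was at 231 and 213 CPM.

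Other genes that rose by the same rule have varied roles. Neat1, the long noncoding RNA of paraspeckles, went from 66.8, 29.9 and 77.7 CPM to 595 and 371 CPM (2.81 ± 0.37, adjusted p = 0.00422), and Gstm1, a glutathione transferase, from 10.8, 5.97 and 19.2 CPM to 102 and 118 CPM (2.80 ± 0.42, adjusted p = 0.00723). Tmem144, a transmembrane protein gene, rose by a log2 fold change of 2.85, the noncoding Gm26825 by 2.82 (lost without P18) and Camk2n1, an inhibitor of a neuronal kinase, by 2.77 (lost without P18 or P132). Camk2n1 was at 548 CPM at P132 against 139.6 CPM at P120. Gm8730, a pseudogene that is a copy of the ribosomal protein gene Rplp0, went from 49.1 to 86.6 CPM in juveniles to 878 and 725 CPM in adults. Rplp0 itself was at 452 to 662 CPM and then at 907 and 686 CPM and did not pass, and since reads of near-identical copies can be split between them, the level of Gm8730 is uncertain. The pseudogene BC023719 (4.00, lost without P19, P23 or the second library of P132 and with DESeq2) and a symbol listed as PISD (3.38) were also called, and their levels are likewise uncertain.

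Several single genes, named after their values were seen because they were called higher in adults, follow. They form no fixed list and show nothing of a group. Apoe, the main lipoprotein of the brain, was at 90.5, 77.7 and 186 CPM in juveniles and 765 and 691 CPM in adults (log2 fold change 2.41 ± 0.36, adjusted p = 0.00723). Abca1, which loads cholesterol onto it, went from 6.46, 2.99 and 7.30 CPM to 39.9 and 70.3 CPM (2.91 ± 0.50, adjusted p = 0.0164, lost without P132). Abcg1, another sterol transporter, went from 15.1, 32.9 and 28.5 CPM to 131 and 78.7 CPM (1.87 ± 0.40, adjusted p = 0.0354). The Abcg1 call was lost without P18, P23, P120 or the second library of P132 and with cells thinned to equal UMIs. The transporter Abca8a rose by 4.22 and the Apoe receptor Lrp1 by 3.33, the latter on 6 juvenile and 27 adult UMIs and lost without P132. The metallothioneins Mt1 (1.86, lost without P18 or P19) and Mt3 (2.31), which bind zinc and copper, the protease inhibitor Serpina3n (4.04), the Ras exchange factor Rasgrp3 (4.18), the lipid-metabolising Gdpd3 (4.55) and the clock-related repressor Bhlhe41 (2.72) were likewise called higher. Apoe and Mt1 are abundant in astrocytes. The 10 astrocyte markers summed to 157, 182 and 279 CPM in juvenile and 537 and 722 CPM in adult MOL, with Gfap and Mlc1 at no more than 21.8 CPM at any age and Aqp4 at no more than 22.5 CPM, and Slc1a2, a glutamate transporter, was called higher (1.53 ± 0.33, adjusted p = 0.0356, lost without P18, P19, P23 or P132 and without cells with UMIs of other types). Of the 10 astrocyte markers 6 were tested, and all 6 had a positive fold change, with Slc1a2 the 1 call. Their median log2 fold change was 1.45, against 0.02 over all genes tested. The part of RNA from other cells in the rises of this paragraph was not tested.

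Genes known from late mature oligodendrocyte subtypes went both ways. Of 17, 15 were tested, 7 had a negative fold change, 2 rose (Il33 and the glutamate receptor gene Grm3, the latter lost without P18 or P120), 1 fell (Gsn), and the median log2 fold change was 0.24, against backgrounds of 1.94% higher and 1.34% lower over all genes. Ptgds, the prostaglandin D2 synthase that is plentiful in mature oligodendrocytes, was at 271 and 373 CPM at P18 and P19, at 1978 CPM at P23, and at 4442 and 3299.7 CPM at P120 and P132 (2.00 ± 0.64, adjusted p = 0.0979). Its ages did not overlap between stages, as for 2447 of all 5877 genes tested, yet P23 stood well above the younger juveniles. Trf, transferrin, lay the other way, at 1747, 1338 and 2906 CPM and then at 963 and 573 CPM (-1.55, adjusted p = 0.0616). Apod, Car2, Cryab and Klk6 were all highest at P23. Of the 10 genes known from early, myelin-forming subtypes all had a negative fold change, against 49.1% of all genes tested, with Ugt8a the 1 call. Birc2, an inhibitor of apoptosis, was at 1234, 630.3 and 281 CPM in juveniles and 185 and 166 CPM in adults (-2.23 ± 0.56, adjusted p = 0.0518).

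Iron, lactate and ion handling genes (15), immediate early and heat shock genes (15, of which 10 were tested) and 2 tested cell cycle genes gave 0 calls, and of 14 tested receptors and secreted signals Il33 was the 1 call. Fth1, the ferritin heavy chain, was at 11645, 9660.1 and 19135 CPM in juveniles and 25679 and 23514 CPM in adults (0.70 ± 0.43, adjusted p = 0.346). The 15 cell cycle genes summed to 64.4 to 123 CPM over the 5 ages, and Top2a and Ccnb2 were at 0 UMIs in MOL at each of them. The 15 immediate early and heat shock genes, which respond to tissue dissociation, summed to 1915, 1927 and 2542 CPM in juveniles and to 2511 and 1672 CPM in adults, so the stages overlapped.

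Precursor markers were higher in both adult MOL sums, whereas the neuron sum was higher at P132 and, at 448 CPM, lower at P120 than at any juvenile age. Pdgfra, the growth factor receptor of precursors, was at 0, 2.99 and 2.65 CPM in juveniles and at 36.3 and 107 CPM in adults (log2 fold change 4.76 ± 0.70, adjusted p = 0.00723), and Ptprz1, a receptor phosphatase, at 2.15, 2.99 and 19.9 CPM and then at 72.5 and 337 CPM (3.95 ± 0.70, adjusted p = 0.0175). Both calls were lost without P132, and that of Ptprz1 also without P18. They were 2 of the 3 precursor markers, of 12, that could be tested, against 1.94% called higher over all genes tested. With juvenile levels this low, both passed the low-count filter through the adult sums. The count is therefore not read as a result about the list. Without the cells of high neuron or precursor share Ptprz1 was at 1.70 and did not pass (adjusted p = 0.163), and the precursor sum was 180 CPM at P120 and 163 CPM at P132, still above the juvenile 56.1 to 121 CPM. That exclusion uses these very markers. Meg3, a noncoding RNA abundant in neurons, was the 1 neuron marker of 9 tested that was called (2.30 ± 0.52, adjusted p = 0.0416), with 478 CPM at P132 against 112 CPM at P120, and without those cells its fold change was -0.98 (adjusted p = 0.246). The call was also lost without P18, P19, P23, P132 or the second library of P132 and without cells with UMIs of other types. The libraries differ in what surrounds MOL: OPC made up 28.1% of cells at P120 and 1.59% at P132, and granule cells and their immature forms 4.70% and 59.4%. The part of the surrounding cells in these levels was not tested.

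Cell by cell, the stages differed in how many MOL cells showed a transcript when each cell was thinned to 1000 UMIs. Granule cells of the same ages, with median depths of 1988 to 5680.5 UMIs, are given beside them. They should lack myelin genes such as Mog, but Hmgcs1 and Apoe can be their own, so those shares are a comparison and not a pure background. At P120 there were only 50 granule cells, where a share of 0% has an upper bound of 7.11%. At least 1 UMI of Mog was found in 88.4%, 93.7% and 92.7% of juvenile MOL cells and in 67.6% and 48.0% of adult ones, against 0% to 0.368% of granule cells. Without thinning the Mog shares were 100%, 100% and 99.5% and then 88.8% and 70.3%.

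Hmgcs1 was found in 84.8%, 66.7% and 70.8% of thinned juvenile MOL cells and in 8.51% and 10.8% of adult ones, with granule cells between 0% and 9.15% (unthinned MOL shares 99.1%, 92.1%, 98.4%, 24.5% and 23.6%). At P120 and P132 granule cells had 0% and 2.36%. Per cell, the 18 cholesterol genes had a median of 5, 3 and 4 UMIs in 1000 at P18, P19 and P23 and 1 at both adult ages, and 0.893% to 7.94% of juvenile but 48.4% and 47.3% of adult cells had none. The upper quartile was also 1 at both adult ages, so low values were common to most adult cells.

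Il33 was found in 0%, 0% and 0.521% of thinned juvenile MOL cells, below the 1.31% to 2.00% of granule cells, and in 20.2% (exact 95% interval 14.7% to 26.7%) and 21.6% (15.3% to 29.1%) of adult MOL cells (unthinned 0%, 4.76%, 1.04%, 31.4% and 33.1%). Apoe was found in 4.76% to 13.5% of juvenile MOL cells, at or below the granule cells of the same ages (7.27% to 16.4%), and in 58.0% and 50% of adult ones, where granule cells had 18% and 12%. Ptgds was found in 12.5%, 19% and 55.2% of juvenile and 93.6% and 79.7% of adult MOL cells, and Gsn in 55.6% to 67.2% and in 18.6% and 11.5%, with both at 2.00% or less in granule cells. Unthinned, Apoe was in 24.1%, 36.5%, 64.1%, 81.4% and 68.9% of MOL cells, Ptgds in 34.8%, 41.3%, 81.8%, 98.4% and 93.2%, and Gsn in 91.1%, 92.1%, 98.4%, 36.7% and 27.7%.

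**Figure D4:**
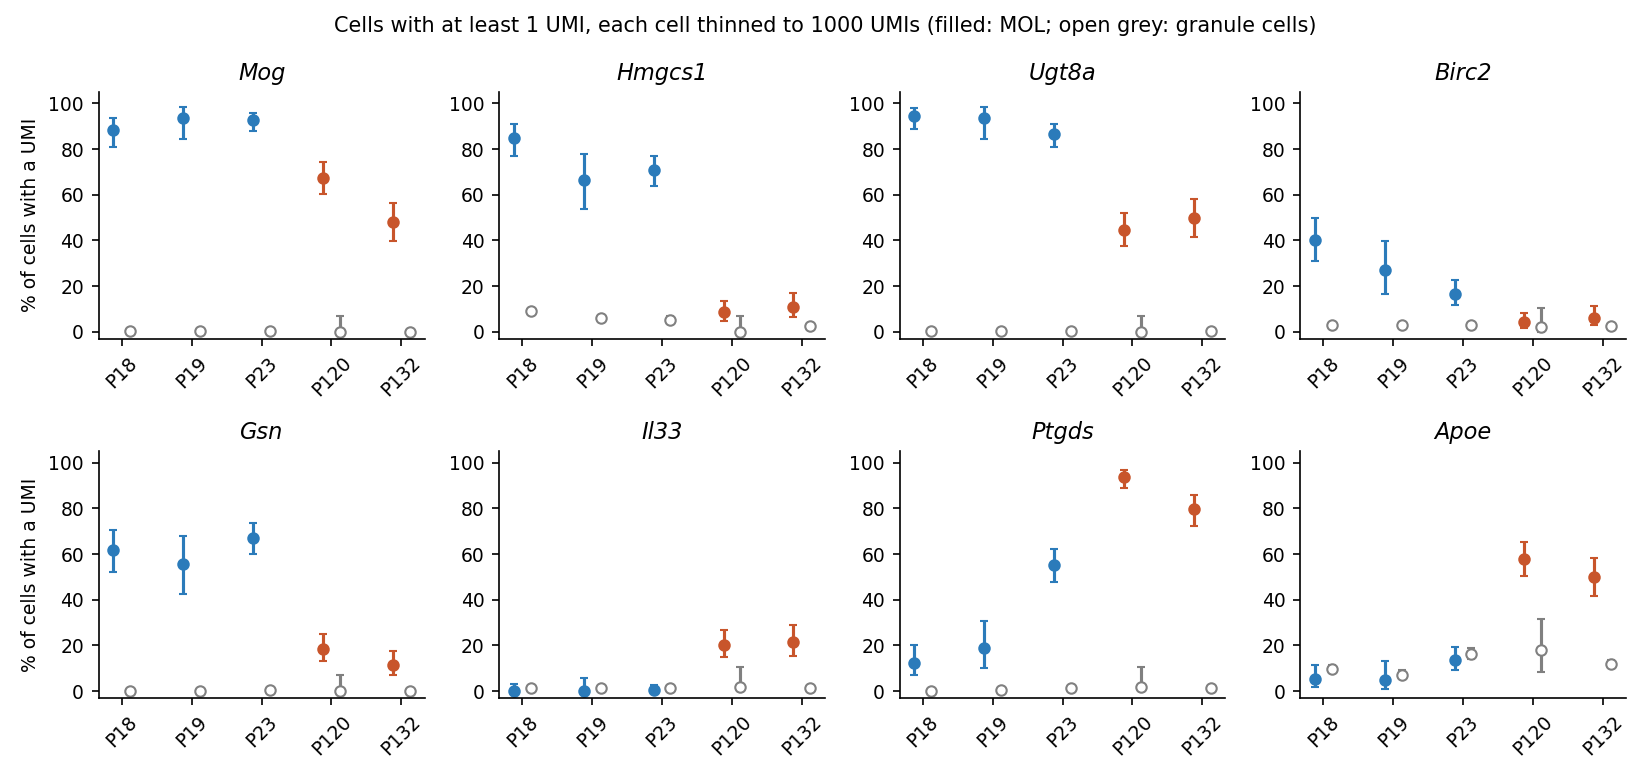
Percent of cells with at least 1 UMI of each of 8 genes after every cell was thinned to 1000 UMIs, with exact 95% binomial intervals over cells; filled points are MOL at juvenile (blue) and adult (orange) ages and open grey points granule cells of the same ages. Hmgcs1 drops to 8.51% and 10.8% of adult MOL cells, whereas Il33 reaches 20.2% and 21.6% from at most 0.521%.

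Myelin transcripts were spread more widely among cells at P132 than at P120. The 10 compact myelin genes together took a median of 59 of 1000 UMIs there, with quartiles of 26.8 and 84.2, against a median of 46 with quartiles of 38.8 and 59.2 at P120. The juvenile medians were 127.5, 161 and 122. These values include the cells of high neuron or precursor share, 67 of 148 at P132 and 8 of 188 at P120. Without those cells the sum of the list was 62985 CPM at P120 and 87126 CPM at P132, against 61708 and 58596 CPM with them. Their part in the spread was not tested. The 2 libraries of P132 had similar sums of compact myelin genes (55628 and 61543 CPM) and neuron markers (2550 and 2671 CPM) but differed in precursor markers (1394 and 336 CPM) and in Hmgcs1 (310 and 129 CPM).

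Whether the change from juvenile to adult was particular to MOL was asked against precursors and astrocytes of the same animals and libraries, which share mouse line, sex of the pool and sort with the MOL cells of each age. Astrocytes are the authors' clusters Immature-Astro, Astro-juv and Astro-adult added together, and their mix changed with stage. Astro-adult made up 7.83%, 48.8% and 3.63% of astrocytes at the juvenile ages but 97.3% and 90.5% at the adult ages, so a step in astrocytes and a change of cluster mix cannot be told apart. The test is of the step, the MOL log2 change less that of OPC or astrocytes, with age as a block. The comparisons with OPC and with astrocytes share the MOL sums. Against OPC, 39 of 7721 genes (0.505%) had a different step, 22 more positive in MOL (0.285%) and 17 more negative (0.220%). By the same edgeR test 0 were called without P23 (unadjusted p was under 0.05 for 487), whereas 2 were called without P18, 14 without P19, 39 without P132 and 150 without P120. Against astrocytes, 188 of 8553 genes (2.20%) differed, 139 more positive in MOL (1.63%) and 49 more negative (0.573%), with 15 calls without P18, 20 without P19, 28 without P23, 660 without P120 and 103 without P132. With age not a block, 0 genes were called against OPC (521 at an unadjusted p under 0.05) and 4 against astrocytes (860).

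Of the 18 cholesterol genes, 9 had a more negative step in MOL than in the summed astrocytes and 0 a more positive one, and the median step difference was -1.67 against 0.07 over all genes tested. Without single ages the count was 3 without P18, P19 or P23, 11 without P120 and 4 without P132, and it was 1 with no block. Astrocyte sums of the list were 3381, 2695 and 3851 CPM in juveniles and 2493 and 2267 CPM in adults, whereas MOL passed from above astrocytes at every juvenile age to below them at both adult ages. Against OPC, whose sums were 984, 863 and 1271 CPM and then 565 and 416 CPM, 0 of 18 were called, with a median step difference of -1.20, which does not show that the steps were alike. NFOL, not tested, had 3958, 1267 and 2043 CPM in juveniles and 713 and 777 CPM in adults, lower than MOL at each of the 5 ages.

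Of the genes named by rule in these tests, Rras2 had a more negative step in MOL than in OPC (-3.12 ± 0.68, adjusted p = 0.00248) and than in astrocytes (-4.82 ± 0.58, adjusted p = 2.29e-04). The former call was lost without P18, P23 or P132 and with no block. OPC had 73.8, 103 and 26.5 CPM of it in juveniles and 30.3 and 64.0 CPM in adults, and astrocytes 7.78 to 11.5 CPM and then 23 and 22.6 CPM. The OPC values of Rras2 rest on only 3, 5 and 6 juvenile and 23 and 6 adult UMIs. Il33 had a more positive step in MOL than in astrocytes (4.31 ± 0.65, adjusted p = 0.00175, lost without P23), where it was at 12.6 to 18.5 CPM in juveniles and 39.4 and 39.1 CPM in adults. In NFOL and OPC Il33 was at 0 to 13.2 CPM at all 5 ages. Gsn (-2.84 ± 0.40), Man1a, a Golgi mannosidase (-2.87), Cd59a, a complement inhibitor (-3.09), and Them4, a thioesterase (-3.36), had more negative steps than in astrocytes. Man1a was lost without P18 or P19, Cd59a and Them4 without P18 or P23, and all of them, Gsn included, with no block. Neither Il33 nor Gsn was called in the step test against OPC, which does not show that the steps were alike. In MOL Cd59a overlapped between stages, at 51.7, 38.8 and 176 CPM and then at 81.6 and 107 CPM. In astrocytes it went from 1, 1 and 6 UMIs to 11 and 32. For Them4 MOL stayed between 22.5 and 39.2 CPM while astrocytes had 13.8 to 77.8 CPM in juveniles and 289 and 232 CPM in adults.

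Against OPC the other negative steps were those of Gjc3, a gap junction gene (-2.41), Acsl3, an acyl-CoA synthetase (-2.19), Npc2, which carries cholesterol out of lysosomes (-2.13), and Rap1gap (-2.08). Acsl3 was at 521, 269 and 333 CPM in juvenile and 121 CPM in both adult MOL sums, and at 41.1 to 107 CPM in OPC. The juvenile OPC values rest on 2, 2 and 17 UMIs for Acsl3 and on 4, 6 and 25 for Npc2. For Gjc3 the difference came with a rise of the OPC values, from 0 to 88.3 CPM to 498 and 245 CPM. The positive steps against OPC were those of Thbs3, a thrombospondin, and of Cacng4, Pdgfra, C1ql1 and Rprm. The last 4 are far higher in OPC, and in MOL they had 1 to 5 juvenile and 19 to 58 adult UMIs. Of them Pdgfra was also tested in MOL alone, and the others entered the test through OPC. Thbs3 was at 53.4 to 152 CPM in MOL, overlapping between stages, and had 1, 1 and 4 juvenile and 0 adult UMIs in OPC, so the size of its step depends on the prior count of the fit. Against astrocytes the positive steps besides Il33 were those of Tmem44, Aldh1a1, Tmem100 and Igfbp5. In MOL Tmem44 had 0 juvenile and 6 adult UMIs, Aldh1a1 6 and 7, Tmem100 5 and 25, and Igfbp5 10 and 25, of which 24 were at P132. These 4 entered the test through astrocytes. There Aldh1a1 went from between 89.3 and 300.5 CPM to 11.5 and 29.5 CPM and Igfbp5 from 635, 364 and 274 CPM to 102 and 223 CPM. Nothing particular to MOL is read from these 4 or from the positive steps against OPC.

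**Figure D5:**
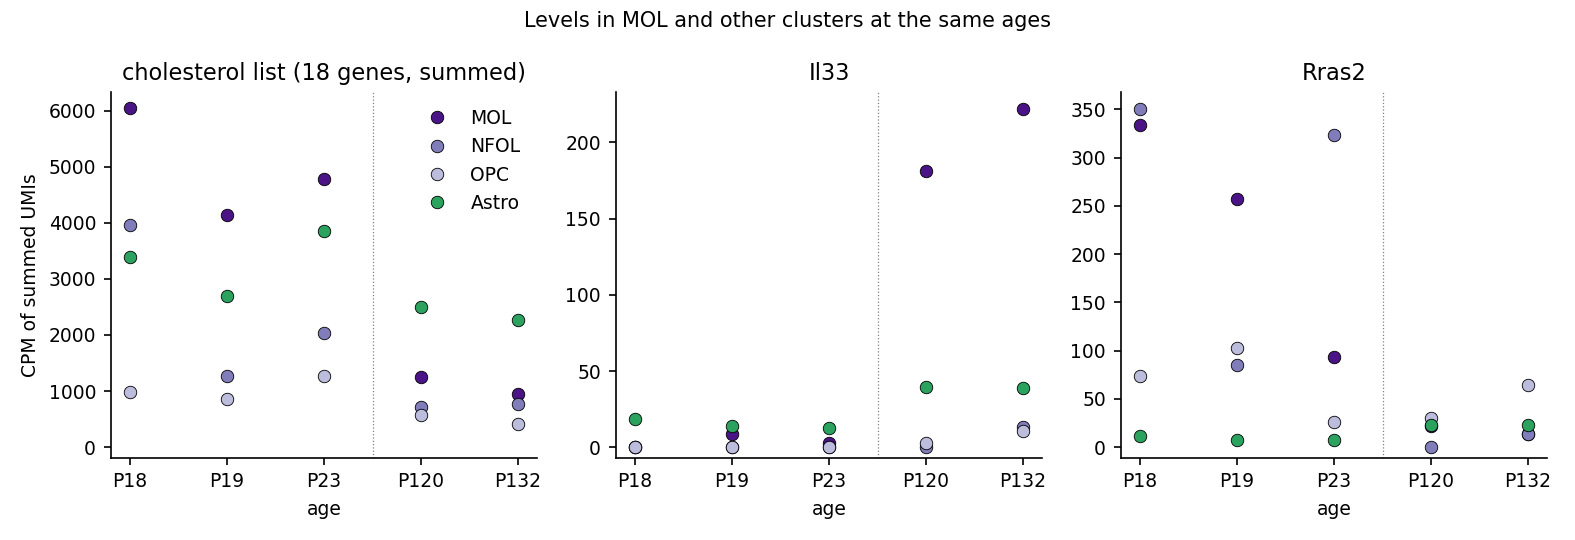
Levels in CPM at the same 5 ages in MOL, NFOL, OPC and astrocytes for the summed cholesterol list, Il33 and Rras2, with a dotted line between juvenile and adult ages. The MOL cholesterol sum passes from above to below that of astrocytes, Il33 is at 181 and 222 CPM in adult MOL and at most 39.4 CPM elsewhere, and Rras2 is at 21.8 and 14.1 CPM in adult MOL.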

How the data were processed

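Dentate gyrus was microdissected, dissociated with papain and run on the 10X Chromium kit version 2, per the labels. The authors deposited UMI counts per gene and cell, with a cluster name for each cell, and the submitters' processing notes name Cell Ranger and the mm10 build; the strand setting is not given in the sources used here. The table holds 27933 genes and 113369778 UMIs.

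MOL counts were summed per age and tested with edgeR 4.0.16 (R 4.3.3; TMM scaling, filterByExpr, quasi-likelihood F test, Benjamini-Hochberg), 3 juvenile against 2 adult ages. CPM are UMIs of a gene per 1000000 UMIs of a sum. Ages are pools of animals, so p-values measure the spread between ages. Steps against OPC or astrocytes had age as a block, since the labels place both clusters of an age in the same animals and libraries; their deviations from the stage means correlated at 0.234 to 0.279 (OPC) and 0.322 to 0.491 (astrocytes). Alternatives included RLE scaling, DESeq2 1.42.0, no filter, thinned cells and each age left out. On simulated counts for the MOL comparison over 5877 genes, 16% of 2-fold and 89% of 4-fold changes were recovered, and 12.5% of the calls were false.

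Named genes were the 10 called genes with the largest fold change in each direction with a mean of 50 CPM or more whose ages did not overlap, 5 each way in the step tests, and list members; others are marked as named after their values were seen. The members and gene lists were chosen with earlier results of these data known. Intervals are exact (Clopper-Pearson) and cover counting error only. No doublet caller was run; 14 cells of very many UMIs, at P120, were left out as an alternative. Promoter windows came from RefSeq. A few genes are not reported here.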

Additional observations from a re-analysis of the deposited data

Results flagged for a closer look

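The change from juvenile to adult ages differed between MOL and other cells of the same ages, by a test of the difference itself, for 39 genes against OPC and 188 against astrocytes. Values are log2 differences, the MOL step less the other step, from edgeR with age as a block over 3 juvenile and 2 adult ages.

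Against OPC the step was more positive in MOL for Thbs3 (5.93), Cacng4 (4.58), Pdgfra (4.16), C1ql1 (3.96) and Rprm (3.84), and more negative for Rras2 (-3.12), Gjc3 (-2.41), Acsl3 (-2.19), Npc2 (-2.13) and Rap1gap (-2.08). Without P23, or with no block, 0 of these 10 passed. Pdgfra alone passed without P18. Cacng4, Pdgfra, C1ql1 and Rprm had 1 to 5 juvenile UMIs in MOL, and Thbs3 had 0 adult UMIs in OPC, so the sizes of these fitted values have little support.

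Against astrocytes the step was more positive for Tmem44 (5.69), Il33 (4.31), Aldh1a1 (4.15), Tmem100 (4.05) and Igfbp5 (3.64), and more negative for Rras2 (-4.82), Them4 (-3.36), Cd59a (-3.09), Man1a (-2.87) and Gsn (-2.84). Rras2 and Gsn passed without each single age in turn. With no block Il33 and Rras2 passed. Tmem44, Aldh1a1, Tmem100 and Igfbp5 had 0 to 10 juvenile and 6 to 25 adult UMIs in MOL and entered the test through astrocytes, whose mix of clusters changed between stages. The 2 sets of tests share the MOL sums, in which the 12 precursor markers were at 62.5 to 121 CPM at juvenile and 315 and 863 CPM at adult ages, and their part in these differences was not tested.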

How the results depend on the processing

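The MOL count of 193 genes lay between 39 and 600 with single ages left out. It was 413 with MOL, NFOL and OPC fitted together, 764 with no low-count filter, 477 without cells of very many UMIs and 385 without cells with UMIs of other types. It was 104 with P132 lacking its second library, a setting chosen after seeing the data, as were no scaling and the exclusion of cells of high neuron or precursor share. DESeq2 called 226 and RLE scaling 196. Meg3 reversed, to -0.98, without the cells of high neuron or precursor share. With no replicate block, the paired step tests called 0 genes against OPC and 4 against astrocytes. Step counts with single ages left out ran from 0 to 150 (OPC) and 15 to 660 (astrocytes), and the astrocyte count was 372 with no low-count filter. For genes singled out in the MOL comparison, 813 values over the alternatives kept direction and call, 73 lost the call and 1 reversed. The 813 include the settings of 20 or more and of 5 or more cells per age, which repeat the main fit and could not differ from it. For the 10 step genes each, 42 values lost the call and 38 kept it against OPC, and 31 lost and 49 kept it against astrocytes. With an age left out, an adult stage of 1 age was assumed to vary like the juvenile ages. The causes were not tested. Depth of 2138 to 7564 UMIs per cell limits genes of few UMIs.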

Other observations

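The 1 MOL cell of P5 had 12495 UMIs and enters no comparison between stages of expression. Mobp gave 103 of them, Mog 25, Opalin 14 and Mal 8. The 18 cholesterol genes summed to 11845 CPM in it and Hmgcs1 had 51 UMIs. Il33 and Ptgds had 0 UMIs, which at the depth of 1 cell says little, and the 12 precursor markers had 0.

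Among adult MOL cells thinned to 1000 UMIs, Ptgds was found in 97.4% of the 38 cells with Il33 and 92.7% of those without at P120, and in 87.5% of the 32 with Il33 and 77.6% of those without at P132.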
